A study of Homo sapiens with 2 samples.

Results

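Accessible chromatin at and around 10 telomere maintenance genes was read from ATAC-seq peak lists of cells labelled U2OS, an established human osteosarcoma line. The genes were TERT, the 6 genes of the shelterin complex (TERF1, TERF2, TERF2IP, TINF2, POT1 and ACD), the helicase gene RTEL1, and ATRX and DAXX. They were chosen by name among 20037 protein-coding genes on chromosomes 1 to 22, X and Y. The windows ran from 10 kb before to 10 kb after the RefSeq bounds of each gene, and held 69 of the 213285 sh-ctrl peaks and 91 of the 302466 sh-VNGD peaks.

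There were 2 groups of 1 library each. The cells of one had been given a viral control hairpin (sh-ctrl), and those of the other a hairpin that targets Vanguard, a long non-coding RNA (sh-VNGD). Both were otherwise the same line, grown in DMEM with serum, and the labels of these samples name no glucose treatment. With 1 library per group nothing measures the spread between replicates, so no p-value is given and every interval covers counting error only. An effect of this hairpin other than through Vanguard cannot be told apart from that of the knockdown, and the RNA itself was not measured. In a bulk library, fewer cells with an open site and a site less open in every cell cannot be told apart either.

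As background, chromosome ends shorten at each division unless new repeats are added. Most cancers add them with telomerase, whose catalytic subunit is made from TERT, while a minority copy repeats from other telomeres by recombination, which is called alternative lengthening of telomeres. Shelterin coats the repeats and hides them from DNA repair, and ATRX with DAXX places histone H3.3 at telomeres. U2OS is a widely used model of alternative lengthening, and is known for lacking ATRX protein and telomerase activity.

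Tn5 transposase, used in ATAC-seq, cuts open chromatin. The deposited pileup is the number of tags that cover a peak's summit, each tag centred on a cut, and it is not scaled for depth. The libraries kept 22931980 (sh-ctrl) and 31326715 (sh-VNGD) tags after repeats of a position, 56.0% and 35.0% of the tags, had been removed. The median pileup at gene starts was 76 tags under sh-ctrl and 75 under sh-VNGD, although sh-VNGD kept 1.37 times as many tags. All ratios below are log2 of sh-VNGD over sh-ctrl, scaled to kept tags and then set relative to the median of all genes, which was −0.45. A relative ratio of 0 thus stands for a gene that moved as the median gene did.

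Epithelial marker genes went against the labelled cell type. All 6 epithelial markers on the list had a start-site peak in both libraries, with a summed pileup of 794 tags under sh-ctrl and 731 under sh-VNGD. KRT8, a keratin of simple epithelia, stood at 194 and 134 tags, ESRP1, an epithelial splicing factor, at 158 and 157, and EPCAM, an epithelial adhesion molecule, at 139 and 108. CDH1 stood at 127 and 138 tags and KRT18 at 166 and 174, while KRT5, a basal keratin, had 10 and 20. Of 7 osteoblast and mesenchymal markers, 5 had a peak in both, with a summed pileup of 186 and 197 tags. Across all protein-coding genes 68.7% had a start-site peak in both, so that count is near the common share. RUNX2, the bone lineage factor, stood at 38 and 43 tags, COL1A1 at 94 and 75, and TWIST1 at 12 and 41. SPARC and VIM had no peak within 1000 bp of the listed start. VIM had one of 94 and 91 tags further into the gene, 1550 bp after that start in sh-ctrl, which the sum leaves out. Another 6 genes, added after their values were seen, were open in both libraries, among them ESR1, at 84 and 63 tags, GATA3, at 151 and 142, and FOXA1, at 154 and 143, which are factors of luminal epithelium. Of 4 endothelial markers 0 had a start-site peak in both libraries, with 3 at 10 to 16 tags in sh-ctrl only, and of 5 haematopoietic markers 2 had one. These were CD3E, at 112 and 82 tags, and SPI1, at 105 and 113, a summed pileup of 217 and 195. Both were placed by an outer gene end, as were CDH1, EPCAM, ESRP1, KRT18, COL1A1, COL1A2 and TWIST1, and such a peak may lie at the far end of the gene. The libraries are therefore called by their labels, and what is known of U2OS is given as background on that line. Which cells were used was not tested further.

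Promoter sequences were available for 6 of the 10 genes in the RefSeq table of GRCh38.p14, and not for ATRX, DAXX, TERF1 and TERF2. The 4 below are shown because they carry the contrast in this gene set. TERT and TINF2 were among the weakly open starts and POT1 and TERF2IP among the strongly open ones. Each run holds 300 bases on the strand of the gene, from 250 before to 50 after the start. Capitals mark matches on either strand to 6 short motifs. They are the E-box (letters CACGTG), the GC box (letters GGGCGG), the core of ETS factor sites (letters CCGGAA), the CCAAT box, the CRE core (letters TGACGTCA) and the YY1 core (letters AAGATGGC).
TERT, chr5:1295019-1295318, minus strand: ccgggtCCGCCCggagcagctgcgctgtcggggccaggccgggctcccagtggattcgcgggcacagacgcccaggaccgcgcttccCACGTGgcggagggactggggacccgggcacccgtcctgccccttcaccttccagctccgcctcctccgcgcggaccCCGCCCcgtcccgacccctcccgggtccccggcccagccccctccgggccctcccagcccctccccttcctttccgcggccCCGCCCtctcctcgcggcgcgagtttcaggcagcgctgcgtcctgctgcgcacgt
TINF2, chr14:24242574-24242873, minus strand: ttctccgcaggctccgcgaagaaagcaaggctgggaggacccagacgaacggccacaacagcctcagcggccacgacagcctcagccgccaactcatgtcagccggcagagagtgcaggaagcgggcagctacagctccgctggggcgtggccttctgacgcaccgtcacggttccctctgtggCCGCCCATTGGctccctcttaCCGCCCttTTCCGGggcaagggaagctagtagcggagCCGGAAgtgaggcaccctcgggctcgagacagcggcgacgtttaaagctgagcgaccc
POT1, chr7:124929776-124930075, minus strand: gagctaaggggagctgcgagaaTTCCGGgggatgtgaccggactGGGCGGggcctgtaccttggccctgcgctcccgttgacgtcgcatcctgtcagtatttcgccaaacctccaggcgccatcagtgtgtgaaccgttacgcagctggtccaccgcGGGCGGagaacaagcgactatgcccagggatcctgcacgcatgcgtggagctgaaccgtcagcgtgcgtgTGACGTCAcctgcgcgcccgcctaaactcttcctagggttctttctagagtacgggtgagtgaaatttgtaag
TERF2IP, chr16:75647523-75647822, plus strand: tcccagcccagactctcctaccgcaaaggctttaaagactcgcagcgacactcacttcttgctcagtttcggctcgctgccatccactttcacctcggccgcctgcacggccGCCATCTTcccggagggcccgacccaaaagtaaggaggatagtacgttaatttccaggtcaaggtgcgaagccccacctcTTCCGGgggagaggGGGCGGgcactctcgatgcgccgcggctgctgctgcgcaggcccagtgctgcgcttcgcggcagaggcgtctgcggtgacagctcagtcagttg
The TERT run is the richest in G and C, at 77.3%, above 94.1% of the 35116 promoters in the table, whose median is 58.7%. It holds 36 CG dinucleotides, against a median of 14, with 26 in the TINF2 run, 26 in the POT1 run and 25 in the TERF2IP run. An E-box, the letters bound by MYC among other factors, lies at −163 in TERT, and 7.26% of all promoters hold one. GC boxes, which 45.0% of promoters hold, number 3 in TERT, 2 in TINF2, 2 in POT1 and 1 in TERF2IP. The ETS core, held by 17.2% of promoters, appears at −37 and −8 in TINF2, −228 in POT1 and −58 in TERF2IP, and not in TERT. TINF2 also holds a CCAAT box at −60 (34.6% of promoters), next to a GC box, so that the capitals run together there. The CRE core at −23 in POT1 is held by 1.85% of promoters and the YY1 core at −138 in TERF2IP by 2.89%. The CCAAT box, CRE core and YY1 core were absent from the TERT run, and all 4 runs lacked both the telomeric repeat TTAGGG and the NRF1 letters TGCGCATGC. Positions are those of the first printed base of a match, with the start as 0, and a match describes letters only.

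The first comparison asked which of the 10 starts were open. All 10 had a start-site peak in both libraries, within 1000 bp of the listed start, or of the outer gene end where no start was listed. Across all protein-coding genes the same held for 68.7%. A further 2.47% had such a peak in sh-ctrl alone, 3.82% had it in sh-VNGD alone, and 25.1% lacked it. The genes fell into 2 groups, by cuts set after the values were seen. A strongly open group of 6 (TERF1, TERF2, TERF2IP, POT1, ACD and RTEL1) had at least 100 tags in both libraries. A weakly open group of 4 (TERT, ATRX, DAXX and TINF2) had 55 or fewer in both. ACD is counted by a region merged with the PARD6A start, and the peak over its own start base had 72 tags in sh-VNGD. Of all genes with a ratio, 27.1% reached 100 tags in both and 29.5% stayed at 55 or fewer in both. The pileup counts tags at a single position, so levels of different genes are compared without regard to gene length.

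In sh-ctrl the order ran from TERF2IP at 155 tags through TERF1 at 130, TERF2 at 118, POT1 at 115, ACD at 112 and RTEL1 at 103 to ATRX at 45, TERT at 34, TINF2 at 26 and DAXX at 22. The exact 95% Poisson interval of RTEL1 (84.1 to 124.9) did not overlap that of ATRX (32.8 to 60.2), the genes on either side of the cuts. The cuts were placed at this gap, so the gap is no separate support for the groups. Within the weak group each interval overlapped that of its neighbour, and so it did along the strong group. In sh-VNGD the strong group ran from TERF2IP at 129 tags to POT1 at 109, and the weak group from TINF2 at 55 through ATRX at 48 and DAXX at 27 to TERT at 25. TINF2 was thus ninth of 10 in sh-ctrl and the highest of the weak group in sh-VNGD.

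**Figure D1:**
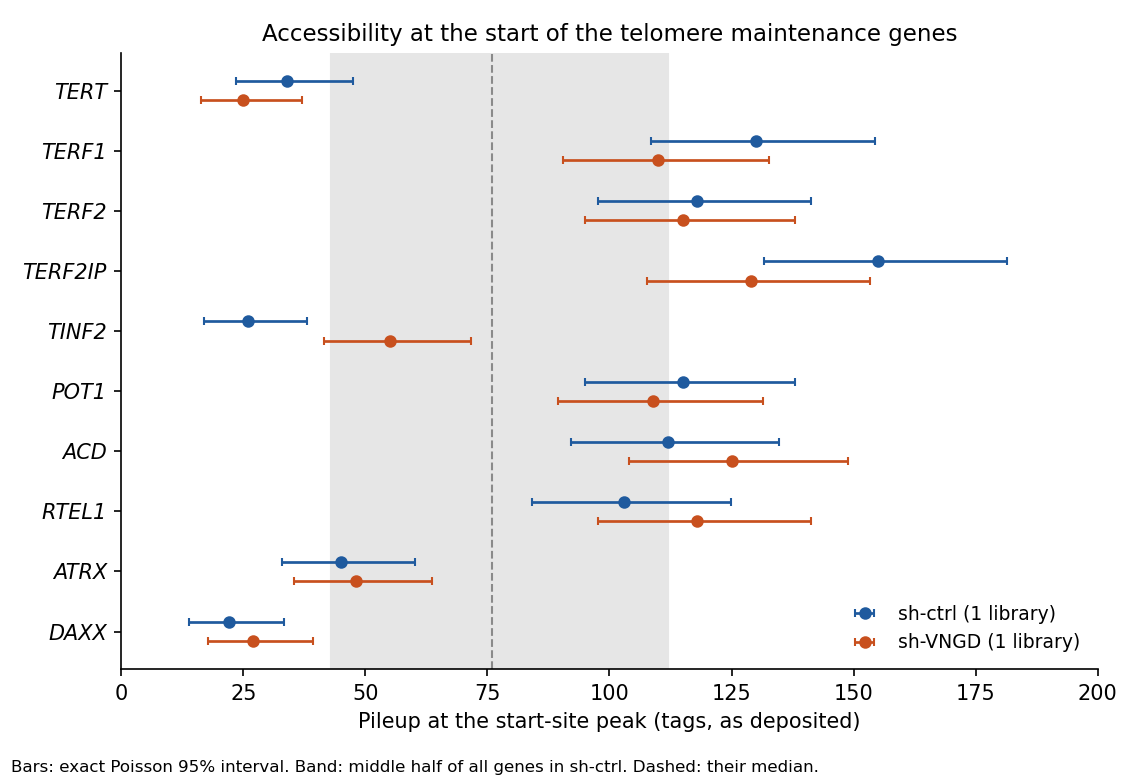
Pileup at the start-site peak (tags, x axis) of each telomere maintenance gene (y axis) in the sh-ctrl and sh-VNGD library. Points are the deposited values, bars their exact Poisson 95% intervals, the grey band the quartiles of all genes in sh-ctrl (43 to 112 tags) and the dashed line their median of 76. TERT, ATRX, DAXX and TINF2 stand at 22 to 55 tags and the other genes at 103 to 155. ACD is plotted by its region merged with PARD6A.

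The next comparison asked whether the starts differed between sh-VNGD and sh-ctrl. The 10 relative ratios had a median of 0.03 and were split between 5 above 0 and 5 below. One gene, TINF2, was past 1.5-fold higher in sh-VNGD, beside 6.45% of the 13699 genes with a ratio, and 0 were past 1.5-fold lower, beside 3.32% of all genes. Its interval lay wholly above 0, as did those of 4.35% of all genes. None of the 10 lay wholly below 0, as did 4.26% of all genes, and 9 of the intervals spanned 0. For ACD this holds for its region merged with PARD6A, and not for the peak over its own start base (−0.64, −1.09 to −0.20). The quartiles of all genes were −0.18 and 0.19, and apart from TINF2 the ratios ran from −0.44 (TERT) to 0.30 (DAXX).

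**Figure D2:**
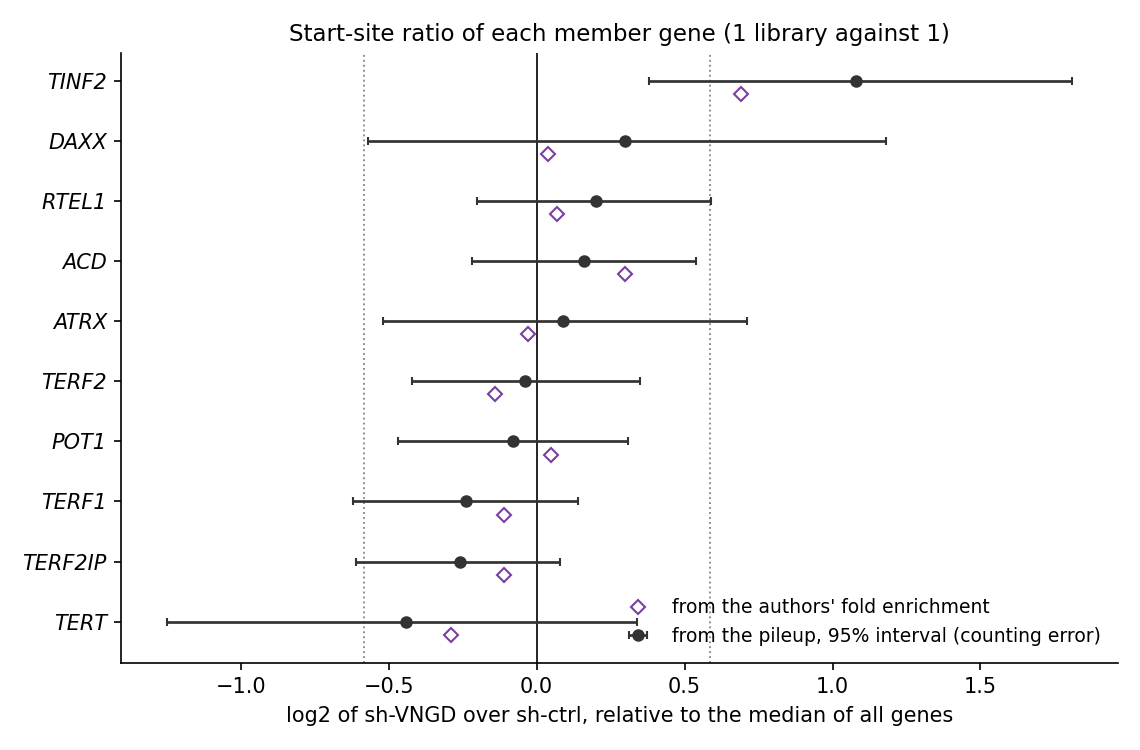
Start-site log2 ratio of sh-VNGD over sh-ctrl relative to the median of all genes (x axis) for each gene (y axis, in order of the ratio). Points with bars are ratios of pileups with exact 95% intervals, open diamonds the ratios of the authors' fold enrichment, and dotted lines 1.5-fold either way. TINF2 is the one gene whose bar leaves out 0, at 1.08 by pileup and 0.69 by fold enrichment.

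TERT encodes the reverse transcriptase of telomerase. It lies on the minus strand of chromosome 5 at 1253167 to 1295068, and its start-site peak covered 1294809 to 1295126, a merged width of 318 bp against a median of 763 bp for start-site regions of all genes. The peak stood at 34 tags under sh-ctrl and 25 under sh-VNGD, higher than 18.1% and 9.09% of genes with a ratio. The start of TERT was therefore open in both libraries, at the low end of open starts. Its relative ratio was −0.44 (95% interval −1.25 to 0.34), which does not separate the libraries at this depth. The peaks covered 103 and 108 of the 300 printed bases, those at the end of the run, so the E-box at −163 lay outside them in both libraries.

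The TERT window held 4 peaks under sh-ctrl and 8 under sh-VNGD, whose list was 1.42 times as long over all chromosomes. Inside the gene, 2.55 kb after the start, a peak stood at 41 tags in both libraries, against 34 and 25 at the start. Beyond the far end of the gene, a peak 48.1 kb from the start had 49 tags under sh-ctrl and 59 under sh-VNGD, and one at 49.8 kb, in the body of SLC6A18, an amino acid transporter gene, had 24 and 25. These 4 regions were shared, and their relative ratios lay between −0.44 and 0.27 with intervals that spanned 0. Another 4 regions had a peak in sh-VNGD only. They were low, with 10, 14 and 15 tags in the gene body at 31.4, 27.3 and 13.1 kb and 15 tags 6.81 kb before the start. The last of these, the peak at 2.55 kb and the start-site peak also lie in LOC124905596, so they cannot be given to TERT alone. The lowest peaks called anywhere had 6 tags under sh-ctrl and 7 under sh-VNGD.

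TINF2 encodes TIN2, the shelterin subunit that joins the double-strand binding proteins to POT1 and its partner. On chromosome 14 its start-site peak covered 24242546 to 24242886. It stood at 26 tags in sh-ctrl (exact Poisson 95% interval 17.0 to 38.1) and 55 in sh-VNGD (41.4 to 71.6). The 2 intervals did not overlap, but they are of unscaled tags, and sh-VNGD kept 1.37 times as many tags. Scaled to kept tags alone the log2 ratio was 0.63. Relative to the median gene, which stood at −0.45, it was 1.08 (0.38 to 1.81), or 2.12-fold (1.3 to 3.51). Without the step to the median gene the interval would take in no change, so the call of TINF2 rests on that step. The authors' fold enrichment over local background was 7.63 under sh-ctrl and 11.4 under sh-VNGD, a relative ratio of 0.69, and the local background had a ratio of 0.47, each relative to its own median over all genes. By either measure TINF2 was past 1.5-fold, and its level in sh-VNGD was higher than 32.8% of genes with a ratio. The peak covered 265 of the 300 printed bases under sh-ctrl and 300 under sh-VNGD, and both ETS cores and both GC boxes lay within the peak of either library.

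Right beside it, 274 bp after the start, sh-VNGD had another peak of 28 tags with no sh-ctrl counterpart. On the other side sh-ctrl alone had peaks of 11 and 14 tags, at −650 and −1604 bp from the start. Away from the start, the highest peak of the window lay 10.2 kb along, at the ends of NEDD8 and GMPR2, with 17 tags under sh-ctrl and 20 under sh-VNGD (relative ratio 0.23, −0.77 to 1.26). None of these peaks was as high as the TINF2 start in the sh-VNGD library.

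**Figure D3:**
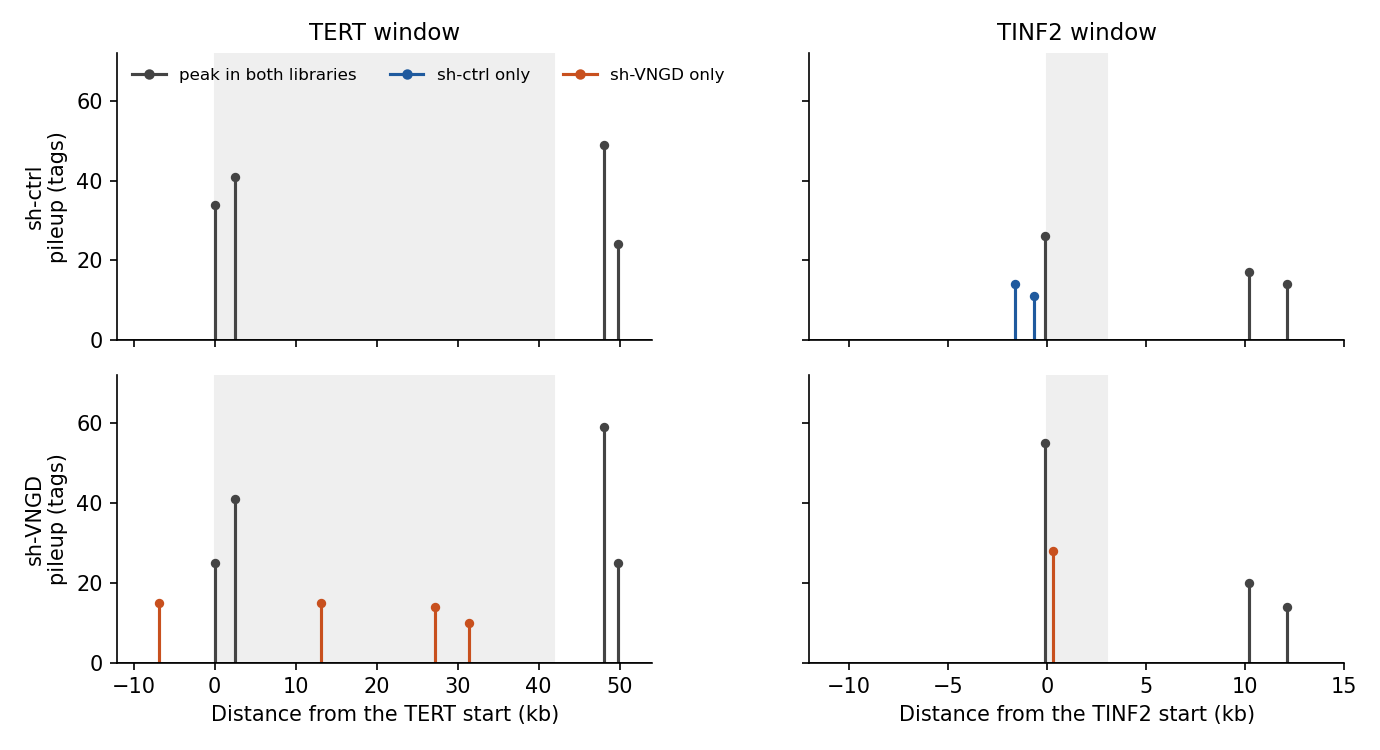
Peaks in the TERT (left) and TINF2 (right) windows by distance from the start in kb (x axis) and pileup in tags (y axis), sh-ctrl above and sh-VNGD below. Grey bands are gene bodies, dark stems regions with a peak in both libraries, and coloured stems peaks of 1 library. The TERT start stands at 34 and 25 tags, and the TINF2 start at 26 and 55, with a sh-VNGD peak of 28 beside it.

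The other 5 shelterin genes were strongly open, with relative ratios from −0.26 (TERF2IP) to 0.16 (ACD, by its merged region). Of the 6 shelterin genes, 5 had at least 100 tags in both libraries, and the medians over the 6 were 116.5 tags under sh-ctrl and 112.5 under sh-VNGD. ACD enters these counts by its region merged with PARD6A. Over its own start base it had 72 tags in sh-VNGD and a relative ratio of −0.64. For all 6 genes, TINF2 included, the median relative ratio was −0.06, with 2 of 6 above 0. TERF1 and TERF2 encode TRF1 and TRF2, which bind double-stranded repeats. TERF1, on chromosome 8, had 130 tags under sh-ctrl and 110 under sh-VNGD (relative ratio −0.24, −0.62 to 0.14). TERF2, on chromosome 16, had 118 and 115 (−0.04, −0.42 to 0.35). For neither did the difference exceed counting error.

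TERF2IP encodes RAP1, which is held at telomeres by TRF2. It had the highest start of the 10 in both libraries, 155 tags under sh-ctrl and 129 under sh-VNGD, above 93.0% and 86.7% of genes with a ratio. The peak is 1334 bp wide as merged and also reaches an end of the neighbouring KARS1, so it cannot be given to TERF2IP alone. Its relative ratio was −0.26 (−0.61 to 0.08). POT1, which binds the single-stranded overhang, had 115 and 109 tags (−0.08, −0.47 to 0.31), over a start it shares with the antisense gene POT1-AS1. ATAC-seq does not mark the strand, so the pair cannot be separated.

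ACD encodes TPP1, the partner of POT1 that brings telomerase to the end. Its start on chromosome 16 was merged with that of PARD6A into a region of 1354 bp, with 112 tags under sh-ctrl and 125 under sh-VNGD (relative ratio 0.16, −0.22 to 0.54). In both libraries the summit lay on the PARD6A side, at −637 and −673 bp from the ACD start. Taking the peak that covers the ACD start base instead, an alternative added after the values were seen, gave 112 tags in sh-ctrl, where 1 peak spans both starts, and 72 in sh-VNGD, where they are 2 peaks. That relative ratio was −0.64 (−1.09 to −0.20), so the direction at ACD depends on how the 2 starts are divided. The highest peak away from it, near C16orf86, had 183 and 172 tags.

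Away from the starts, the shelterin windows held mostly low peaks. In the body of POT1 a region 44.2 kb from the start had 9 tags under sh-ctrl and 25 under sh-VNGD (relative ratio 1.47, 0.33 to 2.76). Of the 40 shared regions away from the starts of the 10 genes, 1 interval lay wholly above 0, this one, and 1 wholly below. Without the step to the median gene this interval would take in no change. A POT1 region at 9.91 kb went the other way, with 32 and 18 tags (−0.83, −1.75 to 0.05). The highest POT1 peak away from the start, at 28.8 kb, had 45 and 42 tags, and beside it sh-VNGD alone had a peak of 23 tags, as it did at 15.8 kb. In the TERF2 window the highest such peak had 34 tags under sh-ctrl and 35 under sh-VNGD, and sh-ctrl alone had a peak of 22 tags in the body of TMED6. In the TERF1 window, 2 regions led away from the start, with 21 and 16 tags in the gene body and 15 and 22 tags before the gene. A peak of 22 tags beyond the end of TERF1 was found in sh-VNGD only. In the TERF2IP window the highest peak away from the start had 32 and 41 tags, in the body of KARS1.

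RTEL1 encodes a helicase that opens telomere loops for replication. On chromosome 20 its start-site region covered 63658140 to 63659168, which leaves out the first listed start at 63657810 and includes the second at 63658312. It had 103 tags under sh-ctrl and 118 under sh-VNGD (relative ratio 0.20, −0.20 to 0.59), within counting error. The highest peak of all 10 windows lay in its body, 24.9 kb from the first start, with 262 tags under sh-ctrl and 230 under sh-VNGD (−0.19, −0.45 to 0.07). A body peak at 7.44 kb had 94 and 120 tags, and one before the gene, at an end of STMN3, had 134 and 112.

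The far end of the RTEL1 window, where TNFRSF6B lies, differed between the lists. Peaks of 63, 67 and 75 tags were found there in sh-ctrl only, at 37.9, 38.7 and 39.7 kb. With one of 21 tags at 13.8 kb, 4 of the 13 regions of the window were in sh-ctrl only, against 16.5% over all chromosomes. The 3 peaks at the far end had low fold enrichments, of 2.27 to 2.68. They stood on a high local background of 27.1 to 27.3 tags, against a median of 5.7 at gene starts in sh-ctrl and a genome-wide value of 1.40. At 43.8 kb, in ARFRP1, a shared region had 55 tags under sh-ctrl and 28 under sh-VNGD (relative ratio −0.97, −1.69 to −0.29), and local background there was 18.7 and 8.40 tags. One peak of 41 tags, at 33.8 kb, was found in sh-VNGD only, over a background of 17.3. At the ARFRP1 region both peak and local background were thus lower in sh-VNGD. The part of the local background in the calls of 1 library at this end was not tested.

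**Figure D4:**
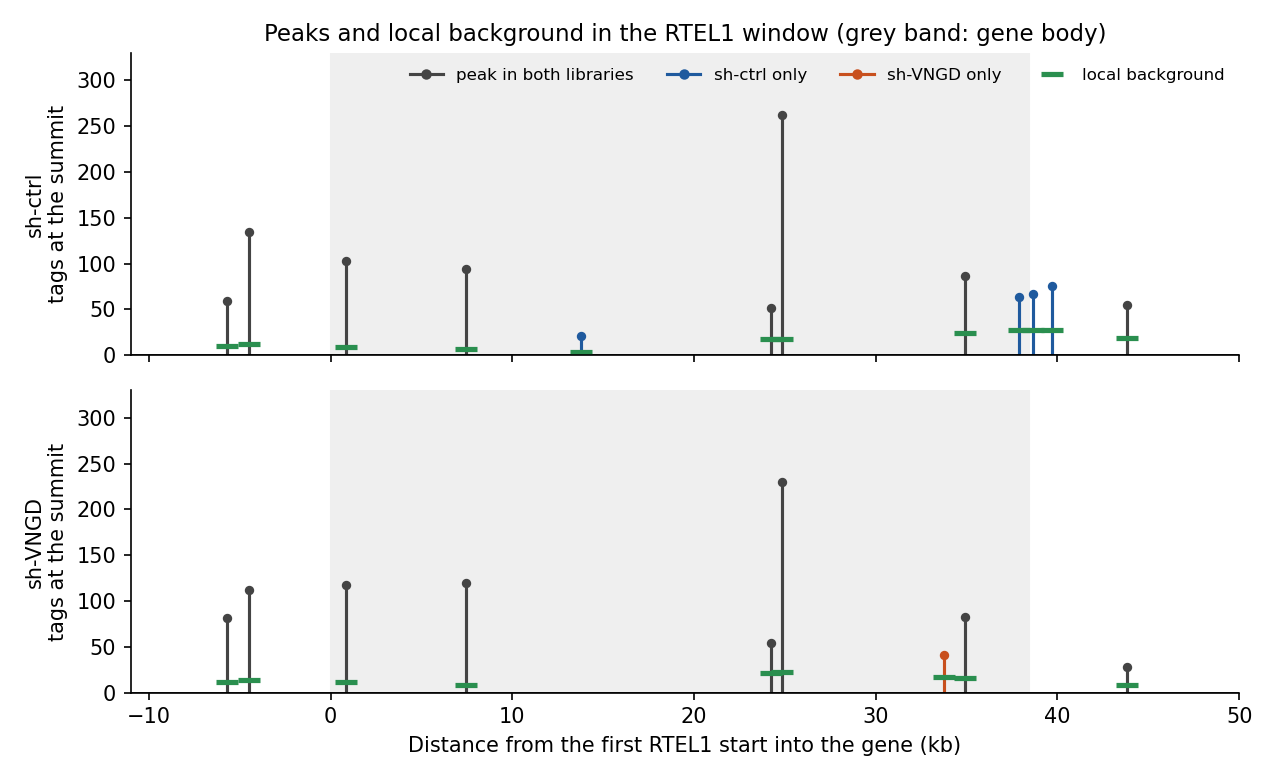
Peaks in the RTEL1 window by distance from the first start in kb (x axis), with tags at the summit (y axis), sh-ctrl above and sh-VNGD below. Green dashes give the local background at each peak, and blue or orange stems peaks of 1 library. The body peak of 262 and 230 tags is present in both, and the sh-ctrl peaks of 63, 67 and 75 tags near the gene end have no sh-VNGD counterpart.

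ATRX encodes a chromatin remodeller that places H3.3 with DAXX, and its loss is the change most often tied to alternative lengthening. On chromosome X its start-site peak covered 77785874 to 77786392. It stood at 45 tags under sh-ctrl and 48 under sh-VNGD, higher than 25.9% and 26.8% of genes with a ratio. The relative ratio was 0.09 (−0.52 to 0.71). The start of ATRX was therefore open in both libraries, with no difference beyond counting error. A second peak 2.02 kb before the gene had 32 and 44 tags, and a pair at 19.2 and 20.2 kb inside it had 33 and 40, and 19 and 30 tags. An open start says nothing of whether the protein is made.

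The body of ATRX held many more low peaks in sh-VNGD. The window of 301 kb had 15 peaks under sh-ctrl and 36 under sh-VNGD, 2.4 times as many, against 1.59 times over chromosome X and 1.42 times over all chromosomes. Merged, these gave 40 regions, of which 11 were shared, 4 were called under sh-ctrl alone and 25 under sh-VNGD alone. The sh-VNGD-only regions had 11 to 21 tags, with a median of 15, and the sh-ctrl-only regions 7 to 14. Of the 25, 22 lay in the gene body, spread from 5.68 to 250 kb from the start, with no peak above 21 tags. The longest stretch without a peak was 77.3 kb in sh-ctrl and 34.3 kb in sh-VNGD.

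All 11 shared regions of the ATRX window had relative ratios above 0, from 0.09 to 1.28 with a median of 0.52. In 5 of them the ratio was past 1.5-fold, and in none did the interval leave out 0. The share of all shared regions past 1.5-fold was not computed. The single largest, 99.2 kb from the start, rested on 7 tags under sh-ctrl and 17 under sh-VNGD. Deeper in the gene, regions at 196 and 273 kb had 13 and 20, and 13 and 21 tags. Nearer the start, those at 50.6, 59.8, 73.4 and 76.1 kb had 9, 10, 16 and 8 tags under sh-ctrl and 11, 17, 23 and 11 under sh-VNGD. Relative to the median gene start, these low body regions were thus higher in sh-VNGD one by one, each within counting error. This rests in part on the step to that median, which stood at −0.45. Without that step the region at 50.6 kb would lie below 0 and the others would be lower. Over all shared regions the median relative ratio was 0.19, and on chromosome X it was 0.24. The sh-ctrl-only peaks had 11, 10, 7 and 14 tags, at 7.2, 27.7, 35.7 and 162 kb. Low shared regions lie above 0 elsewhere too. Among regions with a mean pileup under 30, the median was 0.64 over the 8 of ATRX, 0.34 over chromosome X and 0.29 over all chromosomes.

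The share of regions with a sh-VNGD peak only was 62.5% in the ATRX window, 46.5% on chromosome X and 41.2% over all chromosomes. It was 42.2% in the 1 Mb below the window and 49.6% in the 1 Mb above it. The sh-VNGD library also kept more tags and has the longer list, and the part of depth in this share was not tested. With the lists cut to equal numbers of peaks, the share was 60.5% in the ATRX window, 32.0% on chromosome X and 27.8% over all chromosomes. This comparison was added after the values were seen. It left sh-ctrl peaks from a −log10 q of 1.34 and sh-VNGD peaks from 5.27, so it does not make depth equal. Among the 1093 gene windows with at least 30 regions in those equal lists, whose median share was 28.1%, 1 was as high, ATRX itself. Windows of neighbouring genes can overlap. With all peaks, 16 of 1632 windows were as high, ATRX included. The local background sat at the genome-wide value (1.40 tags under sh-ctrl and 1.92 under sh-VNGD) at 8 of the 15 sh-ctrl peaks and 20 of the 36 sh-VNGD peaks.

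**Figure D5:**
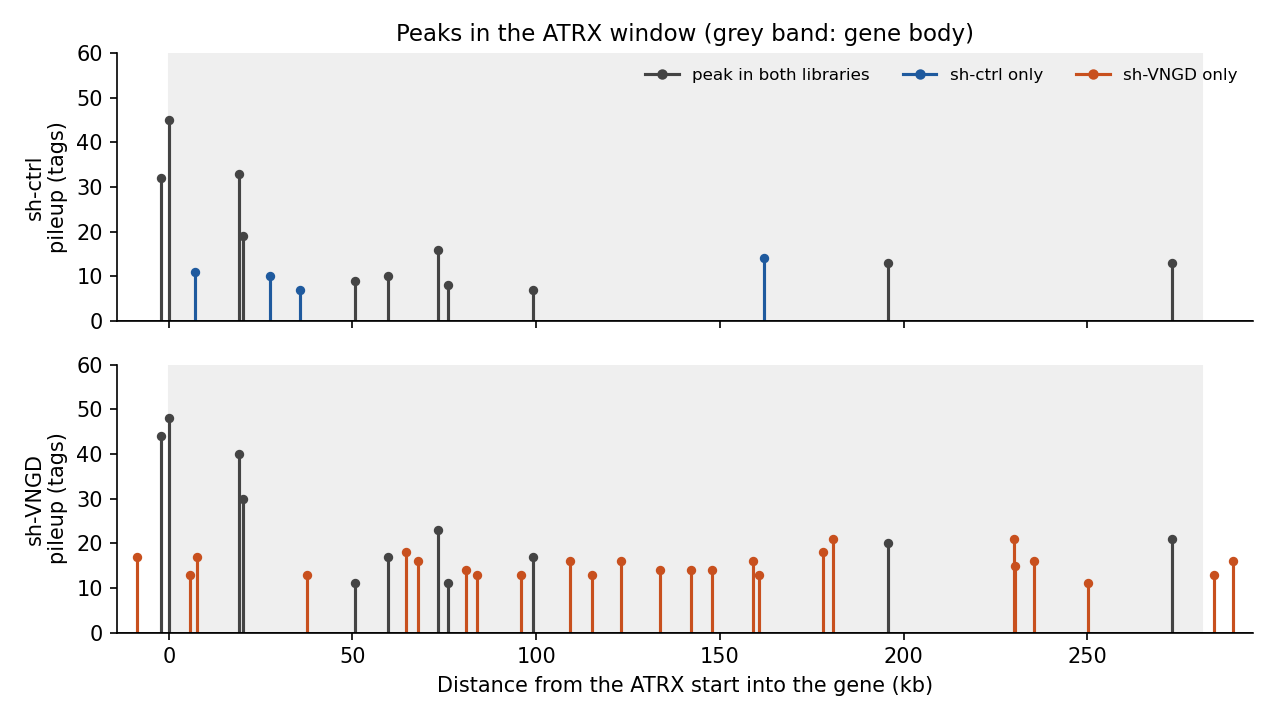
Peaks in the ATRX window by distance from the start into the gene in kb (x axis) and pileup in tags (y axis), sh-ctrl above and sh-VNGD below. The grey band is the gene body, dark stems are regions with a peak in both libraries and coloured stems peaks of 1 library. The start stands at 45 and 48 tags, and 25 regions of 11 to 21 tags appear in sh-VNGD only.

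DAXX encodes the H3.3 chaperone that works with ATRX. No peak covered its outer gene end on chromosome 6, and the nearest region, at 33322968 to 33323393, lies just outside it near SMIM40 and LOC124901303. It was the lowest start-site region of the 10 in sh-ctrl, with 22 tags against 27 in sh-VNGD (relative ratio 0.30, −0.57 to 1.18). The other 3 shared regions of the window, near ZBTB22 and TAPBP, had 13 to 16 tags in sh-ctrl and 14 to 22 in sh-VNGD. A peak of 21 tags in SMIM40, 2.84 kb past the gene end, was found in sh-ctrl only.

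Over all 10 windows, 50 regions were shared by the libraries, 18 were called under sh-ctrl alone and 39 under sh-VNGD alone. Among sh-ctrl peaks, 73.9% met a peak of the other library (62.5 to 82.8, Wilson 95% interval), and among sh-VNGD peaks 57.1% did (46.9 to 66.8). Over all chromosomes the shares were 72.2% and 51.1%. The ATRX window held most of the difference in number. Without it the counts were 54 and 55 peaks, a ratio of 1.02, and the share of regions found in sh-VNGD only was 20.9%, against 36.4% with it. Over all chromosomes the ratio was 1.42 and that share 41.2%, so the other 9 windows lay below both. Those 9 windows did not all go one way. In 4 the sh-VNGD count was higher, with 8 against 4 peaks at TERT and 7 against 5 at TERF1, and in 4 it was lower, with 9 against 12 at RTEL1. The 9 windows had 14 regions called under sh-ctrl alone, or 20.9%, and 14 under sh-VNGD alone. Over all chromosomes 16.5% of regions were called under sh-ctrl alone.

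Other genes of telomere biology were read from 6 lists with 95 genes. Of these, 91 had a start-site peak in both libraries and 1 in sh-VNGD only, PARN, a nuclease that trims the telomerase RNA, with 11 tags. The 3 with a peak in neither were MAJIN, TERB1 and TERB2, which tether telomeres to the nuclear envelope in meiosis. For 90 genes a ratio could be formed, with a median of −0.05, 34 above 0 and 52 below. They hold 2 pairs that share a region, GEN1 with SMC6 and HNRNPA1 with CBX5. One gene was past 1.5-fold higher and 1 lower, beside the shares of all genes given above.

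The higher one was NSMCE2, a SUMO ligase of the SMC5/6 complex that acts in telomere recombination. It had 64 tags under sh-ctrl and 98 under sh-VNGD (relative ratio 0.61, 0.15 to 1.09). Without the step to the median gene that interval would take in no change. NSMCE2 headed a list of 20 recombination genes with a median of −0.01, whose lowest member was MND1 with 58 and 46 tags (−0.33, −0.93 to 0.25). The lower one was CHD4, the helicase of the NuRD complex, with 50 tags under sh-ctrl and 26 under sh-VNGD (−0.94, −1.69 to −0.23). It stood last among 23 genes of H3.3 deposition, heterochromatin and PML bodies, whose median was −0.05 and whose highest member was the histone chaperone gene ASF1B with 39 and 52 tags (0.42, −0.21 to 1.05). Neither gene stayed past 1.5-fold when the authors' fold enrichment was used.

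In the telomerase list of 14 genes the median was −0.01. TERC, the RNA template of telomerase, was open in both libraries with 78 tags under sh-ctrl and 56 under sh-VNGD, the lowest ratio of the list (−0.48, −1 to 0.04). NOP10, a protein of the telomerase RNA particle, had the highest with 46 and 64 tags (0.48, −0.09 to 1.06). The interval of both genes spanned 0. The genes of both core components of the enzyme, TERT and TERC, thus had an open start in both libraries.

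Among 9 genes of the CST complex and telomere replication the median was 0, with ZNF827 highest (33 and 48 tags, 0.54, −0.13 to 1.23) and the polymerase gene POLA1 lowest (92 and 71 tags, −0.37, −0.84 to 0.09). Among 14 regulators of shelterin and telomere-binding zinc fingers the median was −0.06. PINX1, a telomerase inhibitor, was highest with 22 and 30 tags (0.45, −0.39 to 1.31) and the tankyrase gene TNKS2 lowest with 63 and 45 (−0.49, −1.07 to 0.09). ZBTB48, a zinc finger protein of telomeres, had 91 and 123 tags and an interval just above 0 (0.43, 0.03 to 0.84) without reaching 1.5-fold. That interval too would take in no change without the step to the median gene. Among 15 helicases and resolution factors the median was −0.14 and 12 were below 0, from RECQL4 with 105 and 113 tags (0.11, −0.29 to 0.50) to TOP3A with 27 and 19 (−0.51, −1.44 to 0.39). None of these 15 was past 1.5-fold.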

How the data were processed

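The authors called peaks on each library alone with MACS 2.1.0.20150731 and no control input, per the file headers. MACS2 2.1.2, Bowtie2 2.2.5, deepTools and hg38 are named in the submitters' processing notes. Per the file headers, tags were shifted by 100 bp, extended to 200 bp and kept once per position, with a q cutoff of 0.05 and a local window of 10000 bp. For the filtering of alignments, nothing is given in the sources used here. The deposited pileup is an unscaled signal, the fold enrichment is the authors' ratio to local background, and the −log10 p and −log10 q values are the authors' own. Local background was computed as the pileup plus 1, divided by the fold enrichment, minus 1.

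Peaks of both libraries that overlapped by at least 1 bp were merged (Python 3.11.15, pandas 2.3.3, scipy 1.17.1). Starts came from the RefSeq GRCh38.p14 promoter table for 15842 genes and otherwise from the outer gene end with the higher scaled pileup (4195 genes). A gene's ratio used the highest peak of each library in the region within 1000 bp, and a ratio past 1.5-fold was counted. Intervals of ratios are exact Clopper-Pearson 95% intervals and were tested on simulated counts. Those counts were independent Poisson draws, which do not imitate the choice of the highest peak in a called region. All 10 genes were named, with every peak of the TERT window. The rule also asked for every ATRX peak, but ATRX peaks found in sh-VNGD only are given by their range. Of the others, the start-site peak, the highest peak away from it and unshared peaks of at least 20 tags were named. Pathway genes were named when called, open in 1 library only, or highest or lowest of a list. The genes and lists were chosen with earlier results of these data known.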

Additional observations from a re-analysis of the deposited data

How the results depend on the processing

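The 10 starts were recomputed from fold enrichment, each library's own highest peak, windows of 500 and 2000 bp, a minimum pileup of 30 and the peak over the start base. Of these 57 single-gene values, 56 stayed within the counting interval of the reported value. ACD was the exception, at −0.64 from the peak over its start base. Most of the 57 could hardly move. The other windows, the own highest peak and the minimum pileup gave the same tags at each gene, and only the median of all genes shifted. Other tags or values came only from fold enrichment and, at ACD, from the start base, so the count of 56 does not measure stability. Scaling to tags read cancels once ratios are set relative to the median gene, so it tests nothing here. TINF2 ran from 0.69 to 1.11, TERT from −0.44 to −0.29 and ATRX from −0.03 to 0.12; DAXX gave no value at a minimum pileup of 30. Of the other pathway genes, 0 were past 1.5-fold higher and 0 lower by fold enrichment, and 2 were lower by each library's own highest peak, against 1 and 1. Peaks in the windows depended on their width. Gene bounds alone held 42 sh-ctrl and 66 sh-VNGD peaks, and bounds extended by 50 kb held 162 in sh-ctrl and 212 in sh-VNGD. No paired analysis was possible because each group had 1 library. Low pileups limit the precision: at 22 and 27 tags, the interval of DAXX ran from −0.57 to 1.18.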
